A study of Mus musculus with 4 samples.

Results

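Iron uptake and storage genes were followed in natural killer T (NKT) cells, lymphocytes whose receptor recognises lipids presented by CD1d. The group holds 7 genes, chosen by symbol for their roles in taking up, storing and sensing iron, out of 12020 genes in the deposited count table: Tfrc, Slc11a2, Fth1, Ftl1, Ireb2, Aco1 and Hmox1. All 7 were in the table and all 7 passed the filter on low counts, which kept 11312 genes. The cells were sorted by high GFP from C57BL/6 mice of the genotype Va14 Tg.cxcr6gfp/+, aged 10 to 12 weeks. A Vα14 receptor transgene and a GFP allele of Cxcr6 were thus carried by both groups. The stimulated cells, called tetramer here, were cultured on plates coated with mCD1d-PBS57 tetramers, and the other cells were kept resting. Each group had 2 libraries, named after the column numbers 4 and 5 of the table. Liver is the labelled tissue, although the sorting protocol also mentions spleens and the extraction protocol islets. How long the cells were cultured is not stated there.

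Cells take up iron mainly as transferrin, which the transferrin receptor carries into endosomes, where iron is reduced and moved to the cytosol. Iron that is not used at once is kept inside ferritin, a shell built of heavy and light chains. When iron is scarce, iron regulatory proteins bind hairpins called iron-responsive elements in messenger RNAs. Binding in the untranslated region (UTR) after the coding sequence stabilises the receptor transcript, and binding in the UTR before it blocks translation of ferritin. Dividing lymphocytes depend on the transferrin receptor for the iron they need to make DNA and mitochondrial enzymes. Since ferritin is controlled in large part at translation, its transcript level is not a measure of its protein.

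The hairpins are shown because they are the sequence by which Tfrc, Fth1 and Ftl1 are tied to the iron sensors. The pattern searched, on the transcript strand, was a C, any 5 bases, the 6-base loop CAGTGN and 5 further bases able to pair with the first 5 (G with T allowed). It was searched in coding transcripts of GENCODE M21 on the build GRCm38, and the loop is in capitals. Matches in a UTR were found in 3 of the 7 genes, with 4 in Tfrc, 1 in Fth1 and 1 in Ftl1, against 0.731% of 21877 coding genes. No match of this pattern was found in the UTRs of Slc11a2, Ireb2, Aco1 or Hmox1. This does not show that they lack an element, since one with another stem or loop would be missed.
Tfrc, 3′ UTR, chr16:32631219-32631248, plus strand: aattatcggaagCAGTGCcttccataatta
Tfrc, 3′ UTR, chr16:32631598-32631627, plus strand: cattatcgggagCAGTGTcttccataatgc
Tfrc, 3′ UTR, chr16:32631663-32631692, plus strand: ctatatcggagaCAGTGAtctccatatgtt
Tfrc, 3′ UTR, chr16:32631710-32631739, plus strand: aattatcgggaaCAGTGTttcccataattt
Fth1, 5′ UTR, chr19:9982732-9982761, plus strand: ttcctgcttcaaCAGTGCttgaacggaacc
Ftl1, 5′ UTR, chr7:45459778-45459807, minus strand: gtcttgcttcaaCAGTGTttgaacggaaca
Over the 17 bases of the hairpin, the elements of Fth1 and Ftl1 shared 16 bases. The 4 elements of Tfrc shared 11 to 15 bases with one another and 8 to 11 with either ferritin element. The pattern itself makes the C and the loop bases CAGTG the same in every match, and ties the paired bases together. Part of each count was thus fixed in advance, and no likeness between the Tfrc and ferritin elements is read from it.

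The values behind the results are read counts scaled to library size as CPM, with trimmed-mean (TMM) factors. Totals were 5495521 and 5398551 counts in tetramer libraries 4 and 5, and 4168438 and 4433048 in resting libraries 4 and 5. Log2 CPM correlated across genes, which are not independent replicates, with r = 0.956 between the tetramer libraries and r = 0.926 between the resting libraries. Tetramer library 4 lay farther from both resting libraries (r = 0.790 and 0.787) than tetramer library 5 did (0.836 and 0.838). All 10 NKT and T cell markers were in the table, with summed levels of 3143 and 3946 CPM in the tetramer libraries and 4081 and 3541 CPM in the resting libraries. Of these markers 2 were lower after stimulation, Cxcr6 and, named after its values were seen, Klrb1c. Since the labels do not tie the libraries to separate mice, errors and p-values cover the spread between libraries, and this spread may be technical.

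The transcripts of the iron importer and of the heavy chain of ferritin differed in opposite directions. Tfrc was far higher in the tetramer libraries, while Fth1 and Slc11a2 were moderately lower, Ftl1 and Aco1 overlapped between groups, and Hmox1 was clearly lower. The members were chosen with this contrast known, so their differences are given as a description with a standard error and without a test. With a threshold of 0.05 on the adjusted p of edgeR's quasi-likelihood test, 2 members were called, where 26.4% of 11312 genes were. Of these, 1 was higher (Tfrc), where 14.3% of genes were, and 1 was lower (Hmox1), where 12.1% were. The CPM values of the groups did not overlap for 5 of the 7 members, as for 65.2% of all genes. Nothing is read from these counts. The median log2 fold change (tetramer over resting) was -0.69 over the 7 members and -0.06 over all genes. Fth1 and Slc11a2 were not called, and 29.3% and 26.3% of genes had a lower log2 fold change. Their values of -0.69 and -0.78 were smaller in size than the median absolute log2 fold change of all genes, 0.80.

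**Figure D1:**
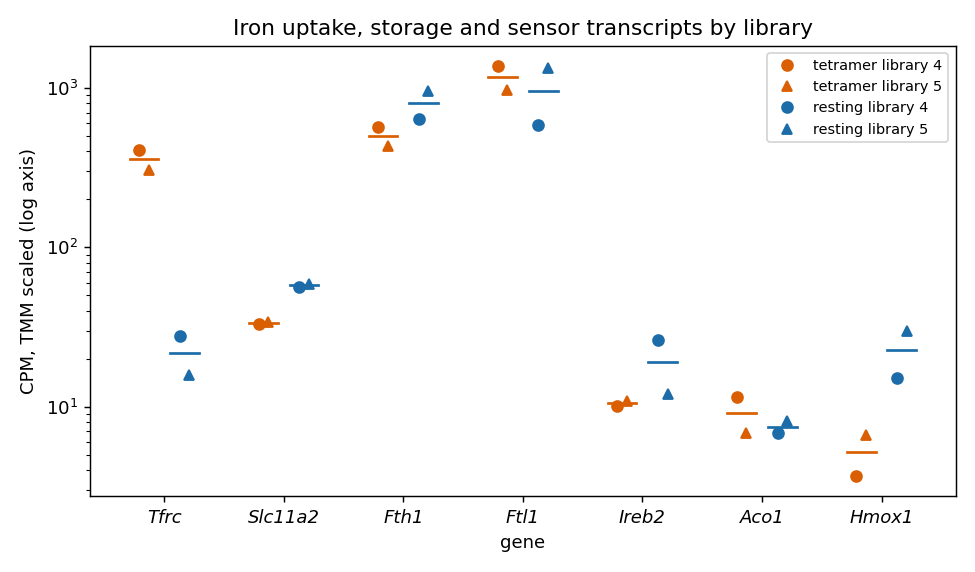
CPM on a log axis for the 7 genes in each library, with tetramer libraries in orange and resting libraries in blue, circles for library 4, triangles for library 5 and bars for the group mean. Tfrc stands at 408 and 307 CPM in the tetramer libraries, against 27.8 and 15.8 CPM in the resting libraries, while the groups overlap for Ftl1 and Aco1.

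Tfrc encodes the transferrin receptor, the route by which most cells import iron. It had 408 and 307 CPM in tetramer libraries 4 and 5, against 27.8 and 15.8 CPM in resting libraries 4 and 5. Both tetramer libraries lay far above both resting libraries, and within each group library 4 was the higher. The means were 357 ± 71.7 CPM in tetramer cells and 21.8 ± 8.45 CPM in resting cells (SD, n = 2 each). The log2 fold change was 4.03 ± 0.43 (SE), a fold of 16.4, and exceeded that of 99.3% of all genes. Leaving out each library in turn gave values between 3.71 and 4.51.

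Slc11a2 encodes the divalent metal transporter that moves iron out of endosomes after transferrin has been taken up. It had 32.9 and 34.0 CPM in tetramer libraries 4 and 5, against 56.4 and 59.0 CPM in resting libraries 4 and 5. The groups did not overlap, and the libraries of a group lay closer together than for any other member, with coefficients of variation of 2.20% in tetramer and 3.22% in resting libraries. The log2 fold change was -0.78 ± 0.41 (SE), a fold of 0.581. The receptor and the endosomal transporter thus differed in opposite directions, though 26.3% of all genes had a lower log2 fold change than Slc11a2. Within a library, Tfrc reads outnumbered Slc11a2 reads by 12.4 and 9.02 to 1 in tetramer libraries 4 and 5. In resting libraries 4 and 5 the same ratio was 0.493 and 0.268.

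Fth1 encodes the heavy chain of ferritin, which oxidises the iron that enters the shell, and Ftl1 the light chain, which helps the iron core to form. Fth1 had 564 and 430 CPM in tetramer libraries 4 and 5, against 641 and 960 CPM in resting libraries 4 and 5. The groups did not overlap, but tetramer library 4 and resting library 4 lay close together. The log2 fold change was -0.69 ± 0.38 (SE), between -0.93 and -0.34 with single libraries left out, and it was nearest to 0 without resting library 5. Ftl1 had 1364 and 969 CPM in tetramer libraries 4 and 5, against 583 and 1324 CPM in resting libraries 4 and 5. Tetramer library 5 lay between the resting libraries, and tetramer library 4 lay just above resting library 5. The log2 fold change of 0.29 ± 0.41 (SE) was -0.17 without resting library 4 and 1.02 without resting library 5.

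The balance between the chains can be read within each library, where it does not depend on the scaling. Fth1 reads stood to Ftl1 reads at 0.414 and 0.444 in tetramer libraries 4 and 5, against 1.10 and 0.725 in resting libraries 4 and 5. The mean ratio was 0.429 ± 0.0213 in tetramer cells and 0.912 ± 0.265 in resting cells (SD, n = 2 each), and the groups did not overlap. Tfrc reads stood to Fth1 reads at 0.723 and 0.713 in tetramer libraries 4 and 5, against 0.0433 and 0.0165 in resting libraries 4 and 5. These are ratios of reads, not corrected for transcript length. Reads of both ferritin genes are uncertain to the extent that the counting shared them with near-identical processed copies. The gene names used here list Ftl1-ps1, Ftl1-ps2 and Ftl2-ps, and none of these was a row of the table.

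**Figure D2:**
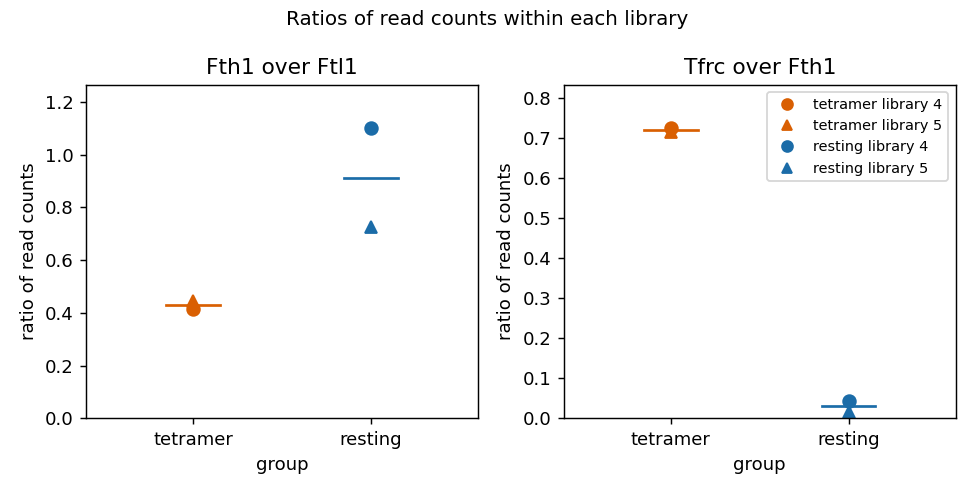
Ratio of read counts within each library (linear axes from 0), heavy over light ferritin chain on the left and transferrin receptor over heavy chain on the right, with tetramer libraries in orange, resting libraries in blue and bars for the group mean. The tetramer libraries lie together at 0.414 and 0.444 on the left and at 0.723 and 0.713 on the right, and the resting libraries at 1.10 and 0.725 and at 0.0433 and 0.0165.

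Ireb2 and Aco1 encode the iron regulatory proteins that bind the hairpins. The product of Ireb2 is degraded when iron is plentiful, while that of Aco1 turns into a cytosolic aconitase when it holds an iron-sulfur cluster, so both are controlled largely after transcription. Ireb2 had 10.0 and 10.9 CPM in tetramer libraries 4 and 5, against 26.3 and 12.0 CPM in resting libraries 4 and 5. The tetramer libraries agreed closely, and the difference came mostly from resting library 4. The log2 fold change was -0.87 ± 0.53 (SE), and -0.18 without resting library 4. Aco1 had 11.5 and 6.88 CPM in tetramer libraries 4 and 5, against 6.84 and 8.12 CPM in resting libraries 4 and 5. The groups overlapped, with a log2 fold change of 0.29 ± 0.59 (SE) that was -0.10 without tetramer library 4 and near 0 with library totals in place of TMM factors. With 33 to 56 counts for Aco1 and 49 to 127 for Ireb2 per library, both sensors rested on few reads.

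Hmox1 encodes heme oxygenase, which breaks heme down and frees its iron, and which macrophages that digest red cells express strongly. It had 3.68 and 6.68 CPM in tetramer libraries 4 and 5, against 15.1 and 29.9 CPM in resting libraries 4 and 5. The groups did not overlap, and in each group library 5 was about as far above library 4, by 1.81-fold in tetramer and 1.98-fold in resting libraries. The log2 fold change was -2.11 ± 0.57 (SE), lower than that of all but 3.47% of genes, and between -2.60 and -1.52 with single libraries left out. It rested on 18 and 33 counts in tetramer libraries 4 and 5. The call noted above was lost without tetramer library 4 or resting library 5.

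Markers of other cells were also lower in the tetramer libraries, in the same direction as Hmox1. Of 13 erythroid markers 7 were in the table and all 7 were called lower, where 12.1% of all genes were. All but Alas2 were hemoglobin genes, so the 7 are not independent, and reads of similar copies may be counted more than once. Their summed levels were 51.2 and 114 CPM in tetramer libraries 4 and 5 and 216 and 555 CPM in resting libraries 4 and 5. The 4 libraries stood in the same order by this sum as by Hmox1. The neutrophil sum below, which is mostly Csf3r, gave that order too, but the macrophage and Kupffer cell sum did not. The most abundant were the hemoglobin genes Hba-a2 and Hba-a1, at means of 19.0 and 17.9 CPM in tetramer cells and 83.4 and 82.1 CPM in resting cells, whose near-identical copies cannot be told apart by reads. Klf1, Slc4a1, Epor, Ahsp and Epb42 were not analysed here. Of 14 macrophage and Kupffer cell markers 4 were in the table and 3 were tested. Their sums were 24.6 and 31.8 CPM in tetramer libraries 4 and 5, and 77.5 and 65.6 CPM in resting libraries 4 and 5, and Cd163 and Csf1r were called lower. The defining markers C1qa, C1qb, C1qc, Clec4f, Vsig4, Cd5l, Marco, Timd4, Lyz2 and Mrc1 were not analysed here. Of 8 neutrophil markers 3 were tested and all 3 were called lower, with sums of 40.5 and 51.0 CPM in tetramer libraries and 121 and 236 CPM in resting libraries. The most abundant of them were Csf3r, at means of 43.2 CPM in tetramer cells and 160 CPM in resting cells, and S100a9, at 1.52 CPM in tetramer cells and 13.3 CPM in resting cells. S100a9 alone also stood in the order of Hmox1. S100a8, named after its values were seen, did not. It had 1.02 and 1.01 CPM in tetramer libraries 4 and 5, and 6.84 and 4.06 CPM in resting libraries 4 and 5. Fewer cells of a type and less RNA per cell cannot be told apart in these bulk libraries, and the part of these markers in the level of Hmox1 was not tested.

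Among the remaining lists, 4 of 10 hepatocyte markers were tested and 2 were lower. They summed to 50.7 and 35.0 CPM in the tetramer libraries and 64.0 and 74.2 CPM in the resting libraries, and the most abundant were Cyp2e1 and Serpina1a. Cyp2e1 did not pass the test, at 37.0 and 16.8 CPM in tetramer libraries 4 and 5 and 25.5 and 15.2 CPM in resting libraries 4 and 5, while Serpina1a was lower, at 7.16 and 9.30 CPM in tetramer libraries and 23.6 and 35.0 CPM in resting libraries. Of 7 markers of sinusoidal endothelium 1 was tested, Pecam1, at 10.2 and 15.8 CPM in the tetramer libraries and 75.0 and 28.8 CPM in the resting libraries.

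**Figure D3:**
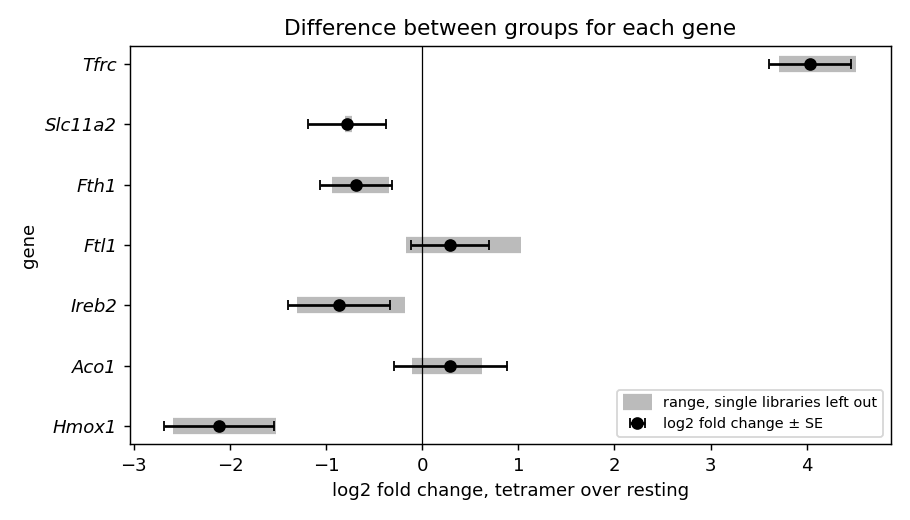
Difference between groups for each gene as a log2 fold change (tetramer over resting), with black points and bars for the estimate ± SE and grey bands for the range when single libraries are left out. Tfrc lies at 4.03 and Hmox1 at -2.11, and the bands of Ftl1 and Aco1 cross 0.

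Levels of different genes were compared as CPM per kilobase of the longest coding transcript in GENCODE M21. Whether reads covered transcripts evenly is not known. In tetramer cells the order was Ftl1 at 1205 ± 289, Fth1 at 333 ± 63.6, Tfrc at 73.1 ± 14.7, Slc11a2 at 7.58 ± 0.166, Hmox1 at 3.30 ± 1.35, Aco1 at 2.39 ± 0.845 and Ireb2 at 1.82 ± 0.110 CPM per kilobase (SD, n = 2). The values of neighbouring genes overlapped between Hmox1 and Aco1 and between Aco1 and Ireb2. In resting cells the order was Ftl1 at 985 ± 541, Fth1 at 536 ± 151, Hmox1 at 14.4 ± 6.67, Slc11a2 at 13.1 ± 0.421, Tfrc at 4.46 ± 1.73, Ireb2 at 3.32 ± 1.76 and Aco1 at 1.95 ± 0.237 CPM per kilobase (SD, n = 2). Here Ftl1 overlapped with Fth1, Hmox1 with Slc11a2, Tfrc with Ireb2, and Ireb2 with Aco1. Tfrc was the third in this order in tetramer cells, after the ferritin chains, and the fifth in resting cells.

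The genes whose log2 CPM over the 4 libraries, centred on its mean, lay nearest to that of Tfrc were Pole, Psat1, Hells, Dis3 and Cinp, at Euclidean distances of 0.26 to 0.50 (log2 units). Pole, the catalytic subunit of a DNA polymerase of the replication fork, had 57.9 and 45.5 CPM in tetramer libraries 4 and 5, against 3.31 and 2.35 CPM in resting libraries 4 and 5. Psat1, an enzyme of serine synthesis, had 196 and 133 CPM in tetramer libraries 4 and 5, against 12.0 and 5.56 CPM in resting libraries 4 and 5. Like Tfrc, both were higher in library 4 of each group. The genes nearest to Fth1 were Rorb, Dlgap5, Rn45s, Gm2a and 2900026A02Rik, at distances of 0.07 to 0.10. Rn45s, the ribosomal RNA precursor, had 9480 and 7266 CPM in tetramer libraries 4 and 5, against 10437 and 17194 CPM in resting libraries 4 and 5. Likeness over 4 libraries is a description with no p.

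Other genes of iron handling were tested in the same fit, in lists that hold 114 further symbols, of which 95 were tested. Over these lists 15 genes rose and 8 fell after stimulation (15.8% and 8.42%), where 14.3% and 12.1% of all genes did. The median log2 fold change of the 95 was 0.14, against -0.06 over all genes. Without tetramer library 4 the counts were 4 and 2, and 5 genes fell without tetramer library 5, as without resting library 5. With library totals in place of TMM factors, 10 rose and 12 fell, while over all genes the split moved to 1193 higher and 2250 lower from 1620 and 1366, and the median log2 fold change to -0.35.

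**Figure D4:**
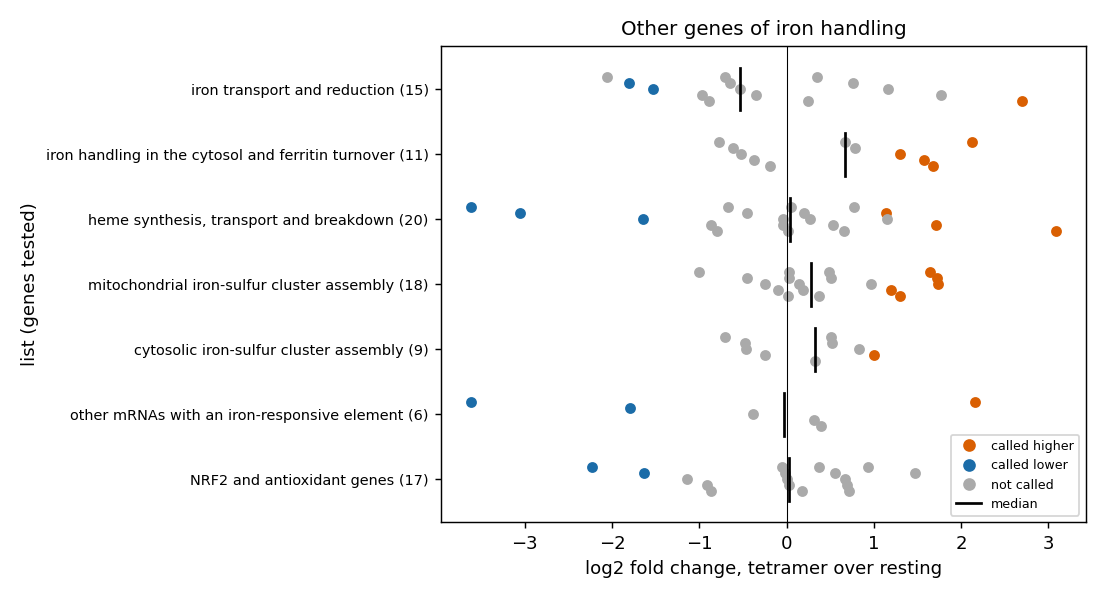
Each point is a tested gene of the 7 other lists, placed by its log2 fold change (tetramer over resting), with called genes in orange (higher) and blue (lower), the rest in grey, a black bar at the median and the number tested in parentheses. Alas2 at -3.62 appears in 2 lists, and the lists of cytosolic iron handling and iron-sulfur cluster assembly hold called genes on the higher side only.

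Genes that carry iron inside the cytosol, or control ferritin turnover, rose in 4 of 11 cases and fell in 0 (edgeR, with 0 at an unadjusted p below 0.05 and 0 by DESeq2). The share that rose was 36.4%, where 14.3% of all genes rose and 12.1% fell. The median log2 fold change of the list was 0.67. Glrx3, a glutaredoxin that hands on iron-sulfur clusters, had 672 and 983 CPM in tetramer libraries 4 and 5, against 165 and 215 CPM in resting libraries 4 and 5. Its log2 fold change was 2.12 ± 0.39 (SE, edgeR adjusted p = 0.000239). Bola2, its partner protein, had 123 and 72.2 CPM in tetramer libraries, against 22.0 and 39.1 CPM in resting libraries (edgeR adjusted p = 0.00454). Leaving out tetramer library 4 ended this call (adjusted p = 0.155). The others that rose, named after their values were seen, were Pcbp1, a chaperone that delivers iron to ferritin, and Skp1a, a subunit of the ubiquitin ligase that degrades the product of Ireb2. Pcbp1 had 243 and 111 CPM in tetramer libraries, against 72.5 and 71.4 CPM in resting libraries. Also picked out for their roles after the values were seen, Fbxl5, the iron-sensing subunit of that ligase, and Ncoa4, the receptor that sends ferritin to lysosomes, did not pass the threshold (edgeR adjusted p = 0.845 and 0.189). The list had 1 gene higher without tetramer library 4.

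Of 15 tested genes of iron transport and reduction, 1 rose and 2 fell, with a median log2 fold change of -0.53. These shares were 6.67% and 13.3%, against 14.3% and 12.1% of all genes. Slc39a14, a transporter for iron not bound to transferrin, rose to 13.7 and 19.2 CPM in tetramer libraries 4 and 5, against 2.49 and 2.56 CPM in resting libraries 4 and 5 (edgeR adjusted p = 0.00233). Cybrd1, a ferric reductase, fell to 7.37 and 9.91 CPM in tetramer libraries, against 17.2 and 43.2 CPM in resting libraries (edgeR adjusted p = 0.0135). Trf, transferrin itself and also on the hepatocyte list, fell to 5.52 and 6.68 CPM in tetramer libraries, against 13.7 and 21.8 CPM in resting libraries (edgeR adjusted p = 0.0407). Both falls were lost without tetramer library 4 (adjusted p = 0.168 for Cybrd1 and 0.319 for Trf) or resting library 5 (0.228 and 0.176), and that of Trf also without tetramer library 5 (0.162).

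Heme genes split evenly, with 3 higher and 3 lower of 20 tested and a median log2 fold change of 0.03. This was 15% each way, where 14.3% of all genes were higher and 12.1% lower. Bach1, the heme-sensing repressor of Hmox1 and of ferritin genes, fell to 3.48 and 4.05 CPM in tetramer libraries 4 and 5, against 31.3 and 31.4 CPM in resting libraries 4 and 5. Its log2 fold change was -3.05 ± 0.54 (SE, edgeR adjusted p = 0.000177), between -3.15 and -2.93 with single libraries left out. The repressor and Hmox1 were both lower in the tetramer libraries. Alas2, the erythroid enzyme that starts heme synthesis and also an erythroid marker, fell to 0.818 and 1.21 CPM in tetramer libraries, against 8.29 and 17.3 CPM in resting libraries (edgeR adjusted p = 0.000686). Alad, the next enzyme of the pathway, rose to 121 and 106 CPM in tetramer libraries, against 18.9 and 50.4 CPM in resting libraries (edgeR adjusted p = 0.00438), which did not hold when resting library 4 was left out (adjusted p = 0.0608). Pgrmc2, a heme chaperone, rose to 69.8 and 49.4 CPM in tetramer libraries, against 23.8 and 30.3 CPM in resting libraries (edgeR adjusted p = 0.0448), and was lost under 4 alternatives, among them library totals (adjusted p = 0.130). The remaining calls, named after their values were seen, were a rise of Abcb6, a porphyrin transporter, and a fall of Ppox, an enzyme late in heme synthesis. Abcb6 rested on few reads, with 27 and 19 counts in tetramer libraries 4 and 5, and 1 and 4 counts in resting libraries 4 and 5.

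Assembly factors of iron-sulfur clusters, the cofactors into which much cellular iron goes, moved upward where they were called. In mitochondria 5 of 18 genes rose and 0 fell (edgeR, with 0 at an unadjusted p below 0.05 and 0 by DESeq2), with a median log2 fold change of 0.28. The share that rose was 27.8%, where 14.3% of all genes rose and 12.1% fell. Hspa9, the mitochondrial chaperone that helps to release the finished cluster, had 199 and 162 CPM in tetramer libraries 4 and 5, against 44.5 and 64.5 CPM in resting libraries 4 and 5 (edgeR adjusted p = 0.00149). Bola3, a late-acting factor, had 62.4 and 37.0 CPM in tetramer libraries, against 8.29 and 21.6 CPM in resting libraries (edgeR adjusted p = 0.00985). It did not pass when tetramer library 4 (adjusted p = 0.206) or resting library 4 (0.0716) was left out. The other 3, named after their values were seen, were Fdx1l and Fdxr, which pass electrons to the assembly machine, and Gfer, a sulfhydryl oxidase. The list had 1 gene higher without tetramer library 4, 2 without resting library 4 and 3 with library totals. In the cytosol the share that rose was 11.1%, below the 14.3% of all genes. That was 1 of 9 genes, and 0 fell (edgeR, with 0 at an unadjusted p below 0.05 and 0 by DESeq2). It was Nubp1, part of the scaffold on which clusters are built at 148 and 114 CPM in tetramer libraries, against 52.4 and 78.2 CPM in resting libraries (edgeR adjusted p = 0.0490), and its call was lost under 6 of the 10 alternatives.

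Of 6 other tested transcripts known for an iron-responsive element, 1 rose and 2 fell (16.7% and 33.3%, against 14.3% and 12.1% of all genes). Epas1, which encodes the oxygen-regulated factor HIF-2α, fell to 7.98 and 11.9 CPM in tetramer libraries 4 and 5, against 21.5 and 47.7 CPM in resting libraries 4 and 5 (edgeR adjusted p = 0.0110). This was lost without tetramer library 4 (adjusted p = 0.171) or resting library 5 (0.146). The other that fell was Alas2, and the one that rose, named after its values were seen, was Cdc14a, whose element is known from human. Cdc14a had 32 and 24 counts in tetramer libraries 4 and 5, and 8 and 4 counts in resting libraries 4 and 5. The stricter filter, at a mean of 50 counts, therefore removed it before testing. No gene of this list was called higher by DESeq2, with the stricter filter, or without tetramer library 4, tetramer library 5 or resting library 5. Among 17 genes of the NRF2 pathway and antioxidant defence, to which Hmox1 also belongs, 0 rose and 2 fell by edgeR. The share that fell was 11.8%, where 12.1% of all genes fell and 14.3% rose. At an unadjusted p below 0.05 there were 2 higher and 4 lower, and DESeq2 called 1 and 1. Catalase, Cat, which removes hydrogen peroxide, fell to 24.8 and 25.5 CPM in tetramer libraries, against 82.5 and 74.2 CPM in resting libraries (edgeR adjusted p = 0.00406, and 0.0763 without tetramer library 4). Nqo1, a quinone reductase named after its values were seen, was the other, at 0.205 and 1.01 CPM in tetramer libraries and 2.90 and 2.99 CPM in resting libraries.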

How the data were processed

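RNA was sequenced from 2 tetramer-stimulated and 2 resting samples of sorted NKT cells. Oligo(dT)-selected RNA was copied to cDNA, per the labels' protocols, and cDNA of 200 to 400 nt was amplified with 23 cycles of PCR. The deposited file holds the authors' whole-number read counts per gene symbol. Bowtie2, DESeq2 and mm9 appear in the submitters' processing notes without versions. The counting tool, strand setting and treatment of shared reads are not stated. No count is below 1, and 1 row was left out because a cell is not a number. Columns were matched to groups by name, since their numbers are not the replicate numbers of the titles.

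Counts were fitted with edgeR 4.0.16 (R 4.3.3) over 11312 genes that passed filterByExpr (minimum count 10), with TMM factors, the quasi-likelihood F test and Benjamini-Hochberg adjustment at 0.05. Standard errors were taken from the F statistic. The fit was tested on simulated data. DESeq2 1.42.0 was an alternative. Libraries of a group were not copies of one another (chi-square over its degrees of freedom 28.0 in the tetramer and 30.9 in the resting pair). Log2 CPM for likeness used a prior count of 2.

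Members and lists were chosen with earlier results of these data known. The rule for named genes took all members, up to 2 called genes in each direction per list with at least 5 CPM on average (or the smallest p), the 5 genes nearest to Tfrc and to Fth1, and the 2 most abundant tested markers per list. Hairpin sequences come from GENCODE M21 transcripts on GRCm38, another build than the authors'. Results of a few marker genes are not reported here.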

Additional observations from a re-analysis of the deposited data

How the results depend on the processing

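When single libraries were left out in turn, log2 fold changes ranged from 3.71 to 4.51 for Tfrc, -0.80 to -0.73 for Slc11a2, -0.93 to -0.34 for Fth1, -0.17 to 1.02 for Ftl1, -1.30 to -0.18 for Ireb2, -0.10 to 0.62 for Aco1 and -2.60 to -1.52 for Hmox1. Members called numbered 1 higher under each of these, and 0 to 1 lower. Genes called over the whole table ranged from 622 to 1629 higher and 313 to 1488 lower, and other iron genes from 4 to 18 higher and 2 to 8 lower. The lone library of a group was then assumed to vary as the other pair did. With library totals, 2250 genes and 3 members were lower, and Slc11a2 stood at -1.08; the cause is the scaling itself, which moves the median gene to -0.35. DESeq2, its size factors in edgeR, no filter and the filter at a mean of 50 counts kept the direction of each member they tested, and the last dropped Aco1. Whether equal library numbers pair the groups is not known. The difference between numbers 4 and 5 correlated with r = 0.0486 across genes between groups, which cannot decide it, since libraries of a pair need not differ alike. With the number as a replicate block, 1693 genes were higher and 1468 lower, as were 17 and 9 other iron genes, and Tfrc stood at 4.07. Depth limits the sensors and Hmox1, which rested on 18 to 140 counts a library.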

Other observations

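The hairpin letters found in Tfrc, Fth1 and Ftl1 also matched UTRs of 157 other coding genes, of which 106 were tested. Of these 20 were called higher and 20 lower in tetramer cells (18.9% each way), where 14.3% and 12.1% of all genes were. Genes with a match in the 5′ UTR were higher in 6 and lower in 2 of 17 cases, with a median log2 fold change of 0.60. Genes with a match in the 3′ UTR were higher in 14 and lower in 18 of 89 cases, with a median of -0.49, against -0.06 over all genes. A match is a pattern of letters and not a shown element, and the difference between the regions was not tested.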
